A study of Mus musculus with 778 samples.

Results

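The nuclear-encoded respiratory chain genes are the genes of the cell nucleus that build the 5 enzyme complexes of mitochondrial oxidative phosphorylation. They were taken from the gene table by symbol, as every *Nduf* gene of the a, b, c, s and v series, every *Cox4* to *Cox8* gene, every *Uqcr* and *Atp5* gene, and *Sdha* to *Sdhd*, with symbols that hold a hyphen left out. This rule found 84 of the 23201 genes, with 37 in complex I, 4 in complex II, 8 in complex III, 18 in complex IV and 17 in complex V. Symbols were kept in the complex their name gives, so *Ndufa4* and *Ndufa4l2*, now assigned to complex IV, are counted under complex I, and *Cox7a2l*, *Atp5s* and *Atp5sl* are counted although they are not regarded as structural subunits. Levels come from single-cell RNA-seq with unique molecular identifiers (UMIs, random tags by which amplified copies of 1 cDNA molecule are counted once) in oocytes picked by hand from wild-type female ICR mice.

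Non-growing oocytes (NGO, under 20 μm in diameter, 46 cells) came from mice 3 to 4 days old. Growing oocytes GO1 (30 to 45 μm, 51 cells), GO2 (50 to 55 μm, 26 cells) and GO3 (60 to 65 μm, 44 cells) and fully-grown oocytes (FGO, over 70 μm, 56 cells) came from mice 3 to 4 weeks old. Stage and mouse age therefore cannot be told apart in any comparison with NGO. The column names of the table gave the stage of a cell and not which of the 4 libraries it came from, so each stage was 1 pooled sample with no replicate, and no test between stages was possible.

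Complex I passes electrons from NADH, and complex II from succinate, to ubiquinone. Complex III hands them on to cytochrome c, complex IV reduces oxygen, and complex V is the ATP synthase, which is driven by the proton gradient that complexes I, III and IV build up. Complexes I, III, IV and V also hold subunits made from mitochondrial DNA, which were not analysed here. The oocyte passes its mitochondria on to the embryo, gathers them while it grows, and burns pyruvate supplied by its follicle cells rather than glucose.

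Levels are given per 1000000 UMIs (CPM), from the summed UMIs of all cells of 1 stage, as a share of the RNA counted and not an amount per oocyte. Stage totals were 24976634 to 64311908 UMIs. Single cells held 22279 to 3898137 UMIs, and the median cell was shallower in GO1 (110146 UMIs) than in NGO (540432 UMIs). The 10 deepest cells gave 80.4% of the UMIs of GO1, 73.2% of those of GO2 and 42.6% to 49.7% of those of the other stages, so values that give every cell equal weight (the mean over cells) are set beside the sums. All 12 oocyte markers, such as the zona pellucida genes *Zp1* to *Zp3* and *Gdf9*, were above 10 CPM in every stage. Together they held 28514 CPM in NGO, 15578 CPM in GO1 and 23089 CPM in FGO, so they were not level across stages. Between NGO and GO1, 5 of the 12 were lower by 2-fold or more, 2 were higher and 5 were neither. Among all genes that reached 10 CPM, 25.7% were lower and 20.6% higher by as much. In 2 GO2 cells and 1 FGO cell, the oocyte markers were under 50% of the stage median. The respiratory chain genes summed to 4449 and 4718 CPM in those GO2 cells, and to 55049 CPM, the highest value of all cells, in that FGO cell. They held 1.25% of the UMIs of GO2 and 0.124% of those of FGO, and without them the number of called genes was the same in each comparison. Markers of granulosa cells, the follicle cells around the oocyte, summed to 10.6 CPM in NGO, 34.6 CPM in GO1 and 14.5 CPM in FGO. *Cyp19a1* made up 16.3 CPM of the GO1 value. *Kitl*, *Inha*, *Cyp11a1*, *Gja1*, *Inhbb*, *Fst* and *Amh* were also higher in GO1 than in NGO, each at or under 5.49 CPM in GO1. *Fshr*, *Foxl2*, *Inhba*, *Nr5a1*, *Wt1* and *Krt18* were lower in GO1. *Amh* and *Foxl2* were at or under 0.233 CPM in every stage. The endothelial list was at 7.98 CPM in NGO and 43.1 CPM in GO1, with *Pecam1* at 4.60 and 37.6 CPM. *Kdr* (0 and 1.27 CPM) and *Tek* (3.29 and 4.19 CPM) were also higher in GO1, and *Emcn* (0.0794 and 0 CPM) was lower. *Cdh5* was at or under 0.0201 CPM in every stage. Stromal and blood lists stayed at or under 15.4 CPM. The part of these cells in the results was not tested.

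The 84 genes together held 32352 CPM in NGO (95% interval 32281 to 32422), that is 3.24% of all UMIs. The later stages held 22054 CPM (GO1), 20959 CPM (GO2), 22357 CPM (GO3) and 24541 CPM (FGO). Per cell, the list ranged from 23307 to 41748 CPM in NGO (median 32705), from 7588 to 37508 CPM in GO1 (median 28337), from 4449 to 28632 CPM in GO2 (median 21706), from 17441 to 33600 CPM in GO3 (median 22604) and from 20388 to 55049 CPM in FGO (median 26942). The median was highest in NGO, and the NGO range overlapped that of each later stage. The sum was 31.8% lower in GO1 than in NGO, whereas the mean over cells was 17.1% lower. All intervals are exact and cover counting error only.

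Each complex was lower in GO1 than in NGO in the stage sums. Complex I held 11852 CPM in NGO and 8245 CPM in GO1, complex II 773 and 467 CPM, and complex III 3327 and 2653 CPM. Complex IV held 8058 CPM in NGO and 4876 CPM in GO1, and complex V 8341 and 5812 CPM. The ratio of GO1 to NGO was lowest in complexes II (0.604, 0.590 to 0.617) and IV (0.605, 0.601 to 0.609), whose intervals overlap. Complexes I (0.696, 0.692 to 0.700) and V (0.697, 0.692 to 0.701) were alike within counting error, and complex III was highest (0.797, 0.790 to 0.806). With every cell given equal weight, the ratio was 0.422 for complex II, 0.753 for complex IV, 0.795 for complex I, 0.908 for complex V and 1.03 for complex III, so the direction of complex III turned. Scaling by TMM factors or by median-of-ratios factors, which centre the bulk of the genes, moved every log2 ratio between NGO and GO1 up by 0.16 or 0.10 and left each complex lower in GO1.

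**Figure D1:**
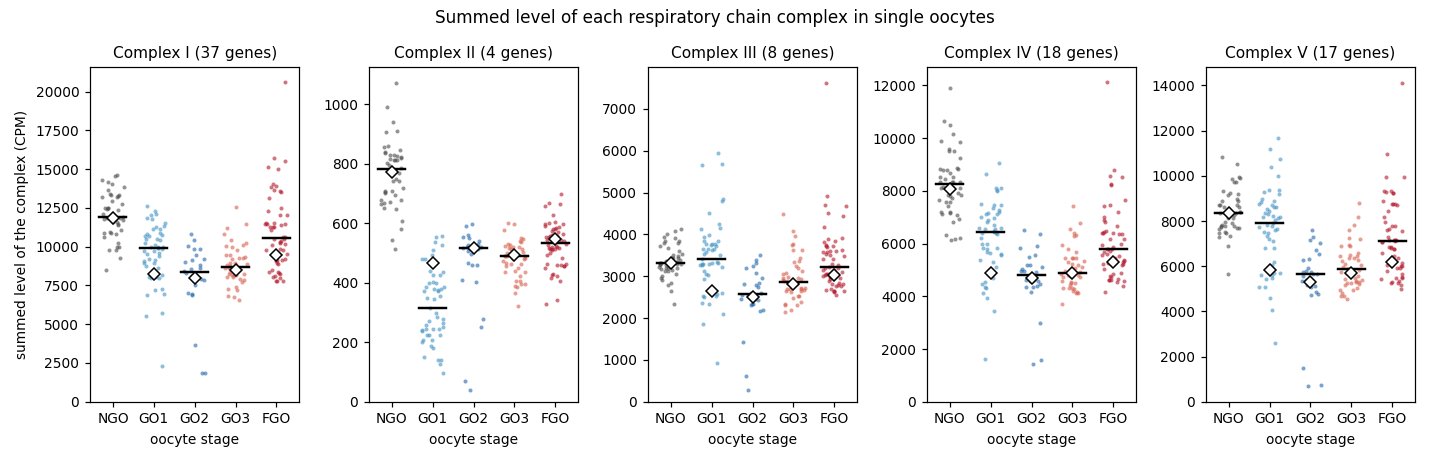
Summed level of the genes of each complex (CPM, vertical axis) in single oocytes of the 5 stages (horizontal axis); points are cells, black bars the median cell and white diamonds the stage sums divided by the stage total. The median cell is highest in NGO in complexes I, II, IV and V, and in GO1 the diamond lies below the median cell in complexes I, III, IV and V and above it in complex II.

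Complex II, taken as a sum, also differed from the other complexes within GO1. Its level was 96.1 to 558 CPM in GO1 cells (median 315) and 514 to 1072 CPM in NGO cells (median 781), and 47 of the 51 GO1 cells lay below the lowest NGO cell. For complexes I, III, IV and V, 12, 3, 21 and 9 of the 51 GO1 cells did so. Across the 51 GO1 cells the level of complex II was higher in deeper cells (Spearman's rho 0.64), while complexes I, III, IV and V had rho of -0.092, -0.35, -0.42 and -0.42. Across the 56 FGO cells the levels of complexes I, III, IV and V followed one another with rho from 0.94 to 0.97, while complex II had rho from -0.14 to -0.036 with them. These levels share the total of a cell as denominator, and depth moved with them, with rho of -0.74 for the whole list and 0.34 for complex II in FGO. The genes of complex II have transcripts of 815 to 2900 bases, all above the 690 bases that split the list below. Between sums and mean over cells in GO1, *Ndufv1* (79.7 and 38.7 CPM) moved as *Sdha* did (87.3 and 49.5 CPM). *Cox7b*, of 1001 bases, moved the other way (325 and 554 CPM). The part of transcript length in these levels was not tested.

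**Figure D2:**
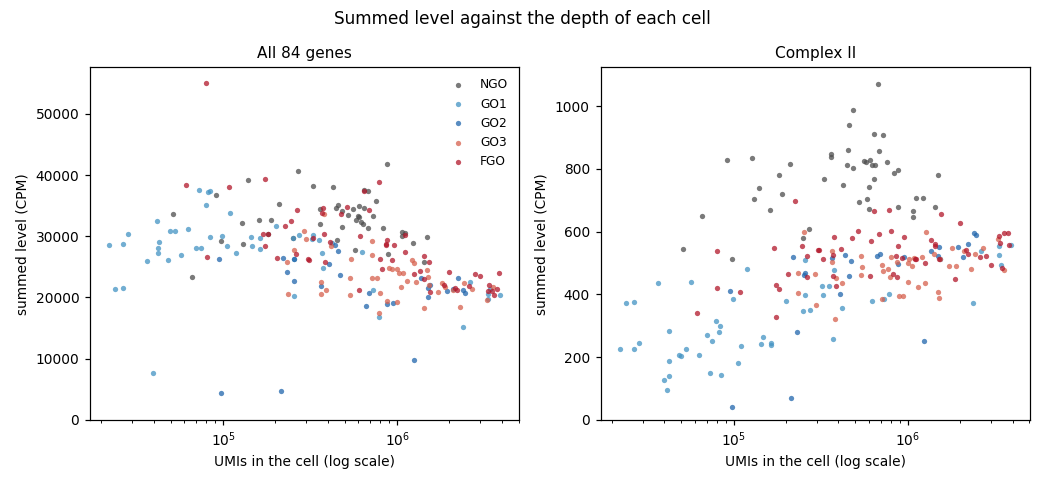
Summed level (CPM, vertical axis) of all 84 genes (left) and of complex II (right) against the UMIs of each cell on a log scale (horizontal axis), with 1 point per cell and colours for the stages. The whole list lies lower in the deeper FGO cells, and complex II lies higher in the deeper GO1 cells, with 47 of the 51 GO1 cells below the lowest NGO cell.

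Between NGO and GO1, 79 genes of the list reached 10 CPM in either stage. A gene was called lower or higher at a change of 2-fold or more, provided that the higher of both levels was 10 CPM or above. By this rule 22 of the 79 genes were lower in GO1 (27.8%) and 1 was higher (1.27%). Over all 8527 genes that reached 10 CPM, 25.7% were lower and 20.6% were higher, so the share of lower genes was near that of all genes and the share of higher genes was below it. The median log2 ratio of GO1 to NGO was -0.66 for the list and -0.15 for all genes, and 69 of the 79 genes were below 0 against 54.3% of all genes. With TMM factors 61 of the 79 were below 0. At a limit of 1.5-fold 45 of the 79 genes were lower, against 36.4% of all genes. In every one of the 46 NGO cells, *Ndufv1*, *Uqcrc1*, *Cox4i1* and *Cox4i2* were above every one of the 51 GO1 cells. These were 4 of the 79 genes, and 0.915% of all genes had NGO cells above all GO1 cells.

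The counts of each complex below stand beside the 25.7% lower and 20.6% higher of all genes. In complex I, 8 of the 35 measured genes were lower in GO1 and none was higher. Of the 7 core subunits, which carry the electrons from NADH to ubiquinone, 5 were lower. Of the 28 other measured genes (accessory subunits and *Ndufa4*) 3 were lower. *Ndufv1*, the subunit that binds FMN and takes the electrons from NADH, lay at 140 to 472 CPM in NGO cells (median 290) and at 0 to 126.6 CPM in GO1 cells (median 27.5). The ranges did not overlap. Its sums were 298 and 79.7 CPM, a level 3.74-fold lower (3.56 to 3.93). *Ndufs1*, the largest subunit with iron-sulfur clusters, held 60.7 CPM in NGO and 16.9 CPM in GO1. *Ndufs7*, which carries the last iron-sulfur cluster before ubiquinone, was at 349.6 CPM in NGO and at 139.6 CPM in GO1. *Ndufs8*, which also carries iron-sulfur clusters, was at 218 and 89.3 CPM. The core subunits *Ndufv2* (log2 ratio -0.63) and *Ndufs3* (-0.42) did not reach 2-fold.

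The lower accessory subunits were *Ndufb9*, *Ndufa3* and *Ndufs6*, and *Ndufb9* had the lowest ratio of complex I, at 416 CPM in NGO against 103.4 CPM in GO1 (4.02-fold lower, 3.85 to 4.19). *Ndufb9* lay at 179 to 663 CPM in NGO cells (median 445) and at 0 to 448 CPM in GO1 cells (median 97.8), and these ranges overlapped. *Ndufa2* and *Ndufb4*, small accessory subunits, had the highest ratios, at 1.35 (1.33 to 1.38) and 1.32 (1.29 to 1.36), under the limit of the rule.

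In complex II, *Sdha* and *Sdhb*, the flavoprotein and the iron-sulfur subunit that oxidise succinate, were lower in GO1, and the membrane anchors *Sdhc* and *Sdhd* were not called. *Sdhb* lay at 151.3 to 422 CPM in NGO cells (median 284) and at 0 to 167 CPM in GO1 cells (median 81.8), so the ranges overlapped only at their ends. Its sums were 269 and 97.3 CPM (2.76-fold lower, 2.64 to 2.89). *Sdha* was at 200 and 87.3 CPM. *Sdhd* was at 219 and 229 CPM in the sums, a log2 ratio of 0.063 that was -0.39 in the mean over cells.

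In complex III, 1 of the 8 genes passed the rule. *Uqcrc1* (NCBIM37 chromosome 9, 108838661 to 108851685, plus strand), one of the core proteins on the matrix side of the complex, lay at 206 to 540 CPM in NGO cells (median 332) and at 0 to 120 CPM in GO1 cells (median 13.5), with no overlap. Its sums were 345 CPM in NGO and 33.3 CPM in GO1, a level 10.3-fold lower (9.64 to 11.1). Its partner core protein *Uqcrc2* was at 307 and 207 CPM, and *Uqcrfs1*, the Rieske iron-sulfur protein, at 99.4 and 66.6 CPM, both within 2-fold. *Uqcr11* (log2 ratio -0.83), *Uqcrb* (0.023) and *Uqcr10* (0.41) are small subunits and were not called either.

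In complex IV, 6 of the 15 measured genes were lower and 1 was higher. *Cox4i2* (chromosome 2, 152579909 to 152590773, plus strand), the isoform of subunit 4 best known from lung and from low oxygen, had the lowest ratio of all 79 genes, at 118.4 CPM in NGO against 2.39 CPM in GO1 (49.5-fold lower, 38.7 to 64.4). It lay at 32.7 to 302 CPM in NGO cells (median 124.4) and at 0 to 25.2 CPM in GO1 cells, of which 17 of 51 held a UMI. *Cox4i1* (chromosome 8, 123192190 to 123198109, plus strand), the isoform found in most tissues, lay at 894 to 2318 CPM in NGO cells (median 1410) and at 186 to 673 CPM in GO1 cells (median 450). Neither isoform overlapped between the stages. *Cox6a1*, *Cox6b1*, *Cox6b2* and *Cox8c* were also lower, at 2.31-fold, 2.86-fold, 2.50-fold and 3.78-fold, and *Cox8c* was at 11.3 CPM in NGO.

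*Cox6a2* (chromosome 7, 135348950 to 135349880, minus strand), the isoform of subunit 6a known from heart and skeletal muscle, was the single gene called higher. It lay at 0 to 23.4 CPM in NGO cells (median 1.69) and at 0 to 112.8 CPM in GO1 cells (median 19.9), and the ranges overlapped. Its sums were 2.98 CPM in NGO and 32.6 CPM in GO1, a level 10.95-fold higher (8.64 to 14.1). With every cell given equal weight it was 6.68-fold higher.

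In complex V, 5 of the 17 genes were lower and none was higher. *Atp5a1* and *Atp5b*, the alpha and beta subunits that form the catalytic head, were at 909 and 607 CPM in NGO against 273 and 205 CPM in GO1 (3.33-fold and 2.96-fold lower). *Atp5d*, the delta subunit of the rotor stalk, had the lowest ratio, at 248.6 CPM in NGO against 41.9 CPM in GO1 (5.94-fold lower, 5.57 to 6.33). It lay at 91.6 to 351 CPM in NGO cells (median 249.3) and at 0 to 112.2 CPM in GO1 cells (median 23.4), so the ranges overlapped at their ends. *Atp5f1*, subunit b of the outer stalk, and *Atp5g3*, one of the genes for the c ring, were 3.05-fold and 3.73-fold lower. *Atp5c1* (the gamma subunit) and *Atp5o* (the subunit that joins head and outer stalk) were at log2 ratios of -0.50 and -0.76 and were not called. *Atp5k* and *Atp5j2*, small subunits e and f of the membrane part, were highest, at ratios of 1.38 (1.36 to 1.41) and 1.24 (1.22 to 1.26).

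**Figure D3:**
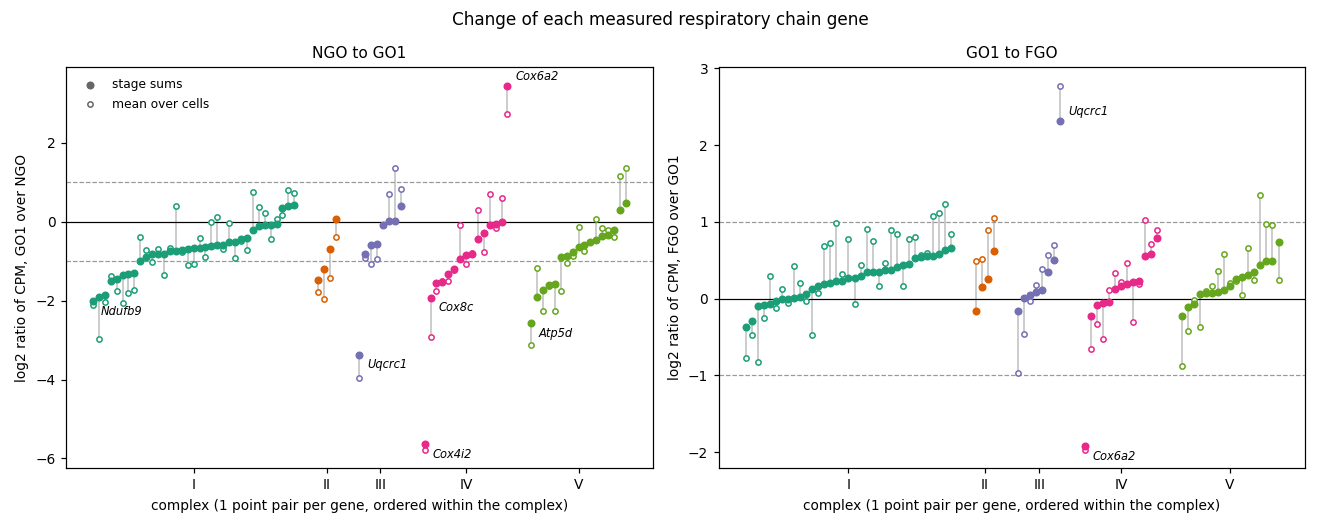
Log2 ratio of CPM (vertical axis) of every measured gene between NGO and GO1 (left, 79 genes) and between GO1 and FGO (right, 77 genes), grouped by complex (horizontal axis); filled points are stage sums, open points the mean over cells, and dashed lines mark 2-fold. *Uqcrc1*, *Cox4i2* and *Atp5d* lie lowest on the left, *Cox6a2* lies highest on the left and lowest on the right, and *Uqcrc1* lies highest on the right.

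Across the complexes, the 18 catalytic or central subunits named by role (the 7 core subunits of complex I, *Sdha* to *Sdhd*, *Uqcrfs1*, *Uqcrc1*, *Uqcrc2*, *Atp5a1*, *Atp5b*, *Atp5c1* and *Atp5o*) included 10 lower in GO1, with a median log2 ratio of -1.24. Of the 61 other measured genes 12 were lower, with a median of -0.61. Beside the 25.7% of all genes, the 10 of 18 is a larger share and the 12 of 61 a smaller one. In the mean over cells of at least 200000 UMIs (36 NGO and 20 GO1 cells) the counts were 11 of 18 and 13 of 61, with medians of -1.38 and -0.46, and 30.3% of all genes were lower. In the mean over all cells they were 12 of 18 and 19 of 61, and 34.6% of all genes were lower. The 18 hold no gene of complex IV, and *Atp5d*, *Atp5f1* and the *Atp5g* genes stand among the others. Central subunits include long transcripts, such as *Sdha* (2900 bases) and *Atp5a1* (2471 bases), and short ones, such as *Atp5o* (560 bases). The part of transcript length, given below, in this contrast was not tested.

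Some genes differed between the sums and the mean over cells, in which shallow GO1 cells weigh more. In the mean over all cells *Atp5k*, *Atp5j2* and *Uqcrb* were 2.57-fold, 2.23-fold and 2.56-fold higher in GO1 than in NGO and passed the rule, whereas in the sums they stood at ratios of 1.38, 1.24 and 1.02. *Ndufa1*, a small accessory subunit of complex I, had a log2 ratio of -0.74 in the sums and 0.40 in the mean over cells. Across the 79 genes the log2 ratio and the transcript length (median over the GENCODE vM1 transcripts of a gene) had Spearman's rho of -0.16 in the sums and -0.33 in the mean over cells, against 0.14 and 0.15 over 7603 genes. The 40 members with transcripts of at most 690 bases held 1.59 times the UMIs of the 39 longer ones in NGO. In the median GO1 cell this quotient was 2.29 among the 41 shallower cells and 1.68 among the 10 deepest, and in NGO it was 1.63 among the 36 shallower cells and 1.56 among the 10 deepest. Genes are not independent replicates, and the part of depth in these differences was not tested.

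From GO1 to GO2 no gene of the list was called, over 77 measured genes, against 0.109% higher and 3.03% lower among all genes. Ratios ran from 0.629 to 1.29. In the sums the complexes were within 10.5% of their GO1 level, with complex II 10.5% higher and complex V 8.95% lower. In the mean over cells the changes were larger. They were -16.9% for complex I, 41.6% for complex II, -27.5% for complex III, -24.8% for complex IV and -30.5% for complex V. In that setting 1 gene was called higher and 9 lower, against 4.16% higher and 12.3% lower among all genes. TMM and median-of-ratios factors moved the log2 ratios of this step up by 0.17 and 0.19, so in the sums the direction of the complexes that were lower (I, III, IV and V) turned with the scaling. From GO2 to GO3 1 of 77 genes was higher, *Uqcrc1*, and none was lower, against 3.34% and 1.01% of all genes. From GO3 to FGO 1 of 77 was lower, *Cox6a2*, and none was higher, against 3.54% and 2.41% of all genes. In that step 63 of the 77 genes were above 0 on the log2 scale and 14 below, beside 42.8% of all genes below 0. The median was 0.17 against 0.062 for all genes. With TMM or median-of-ratios factors 53 of the 77 were above 0.

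Over the whole of growth, from GO1 to FGO, 1 of 77 genes was higher and 1 was lower, against 7.98% and 9.03% of all genes. The list held 11.3% more of the UMIs in FGO than in GO1. Complex II was 16.8% higher, complex I 14.8%, complex III 13.8%, complex IV 8.94% and complex V 6.74%. In the mean over cells complex II was 62.98% and complex I 15.2% higher, while complexes III, IV and V changed by -1.08%, -2.47% and -4.56%, so the direction of complexes III to V rested on the weight of the cells.

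*Uqcrc1* was the gene called higher. Its level was 34.4 CPM in GO2, 91.5 CPM in GO3 and 166 CPM in FGO, 4.97-fold above GO1 (4.65 to 5.33) and below the 345 CPM of NGO. FGO cells lay at 32.5 to 277 CPM (median 159.4), GO3 cells at 13.6 to 192 CPM (median 88.4) and GO2 cells at 0 to 73.6 CPM (median 23.2). The medians were in the order GO1, GO2, GO3, FGO, NGO, and neighbouring ranges overlapped. *Cox6a2*, the gene called lower, had 32.99 CPM in GO2, 18.3 CPM in GO3 and 8.60 CPM in FGO, 3.79-fold below GO1 (3.40 to 4.22).

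The other 75 measured genes stayed within 2-fold between GO1 and FGO in the sums. In the mean over cells 7 of the 77 genes were called higher, *Sdhb* among them (2.07-fold), and 1 was called lower. Among all genes in that setting 16.99% were higher and 15.64% were lower, so both shares of the list were below those of all genes. *Cox6b2* (ratio 1.73), *Atp5g3* (1.67), *Ndufb9* (1.58) and *Sdhb* (1.53) had the highest ratios of complexes IV, V, I and II, and *Ndufc2*, a membrane-arm accessory subunit of complex I, was lowest in complex I (0.771). *Sdha* (0.891), *Uqcrb* (0.896) and *Atp5k* (0.853) were lowest in complexes II, III and V. *Ndufs1* held 16.9 CPM in GO1 and 16.8 CPM in FGO. The catalytic *Atp5a1* and *Atp5b* were at 273 and 205 CPM in GO1, 221 and 169 CPM in GO3 and 288 and 222 CPM in FGO.

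**Figure D4:**
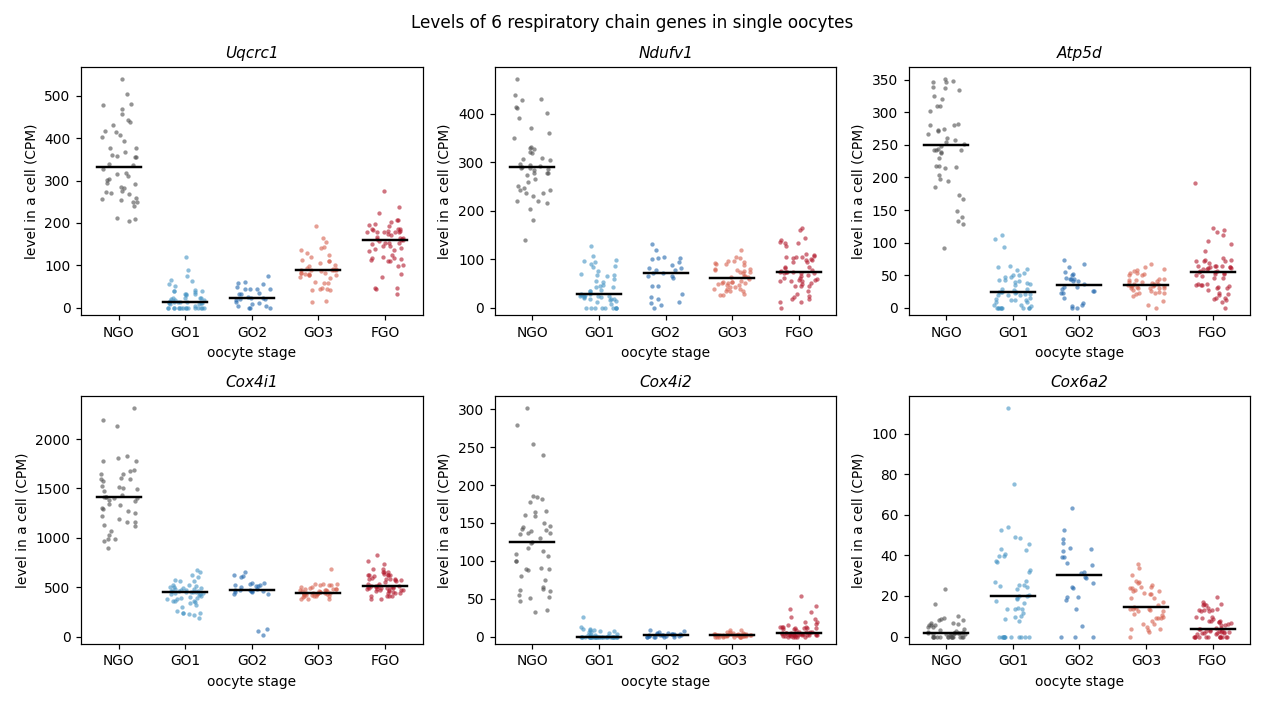
Level of 6 genes (CPM, vertical axis) in single oocytes of the 5 stages (horizontal axis); points are cells and black bars the median cell. *Uqcrc1*, *Ndufv1*, *Cox4i1* and *Cox4i2* of NGO lie above all GO1 cells, *Uqcrc1* is higher again in GO3 and FGO, and the median of *Cox6a2* is highest in GO2 and GO1.

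Several subunits have more than 1 gene, and the share of each gene in the UMIs of its set was compared between stages. UMIs count molecules once each, and no length correction was made. *Cox4i2* held 7.97% of the *Cox4* UMIs in NGO (7.70% to 8.25%), between 0.452% and 0.512% in the growing stages and 1.06% in FGO (0.955% to 1.18%). *Cox6a2* held 0.401% of the *Cox6a* UMIs in NGO, 9.24% in GO1 (8.66% to 9.84%), then 8.89%, 5.43% and 2.34% in GO2, GO3 and FGO. *Cox4i1* and *Cox6a1* thus held at least 92.03% and 90.8% of their sets in every stage. *Cox6b2*, the isoform known from testis, held 33.7% of the *Cox6b* UMIs in NGO and 34.9% to 40.1% in the later stages. It reached 437 CPM in NGO cells (median 243) and was present in every FGO cell, at 61.98 to 259 CPM.

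*Cox7a2* held 52.5% to 63.1% and *Cox7a2l*, a factor for joining complexes III and IV, 36.8% to 47.4% of the *Cox7a* UMIs, with the muscle isoform *Cox7a1* at or under 0.494%. In GO1 the mean over cells gave *Cox7a2* 80.1%. Among the 3 genes for the c ring of complex V, which encode the same mature protein, *Atp5g1* held 72.4% in NGO and 78.9% to 81.3% later, *Atp5g2* held 19.3% in NGO and 14.3% in FGO, and *Atp5g3* held 8.27% in NGO and 2.19% to 4.41% later. *Ndufa4* held at least 99.3% of its set with *Ndufa4l2* in every stage. Many of these genes have processed copies in the genome, and the counting could divide reads between them, which makes these shares uncertain.

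**Figure D5:**
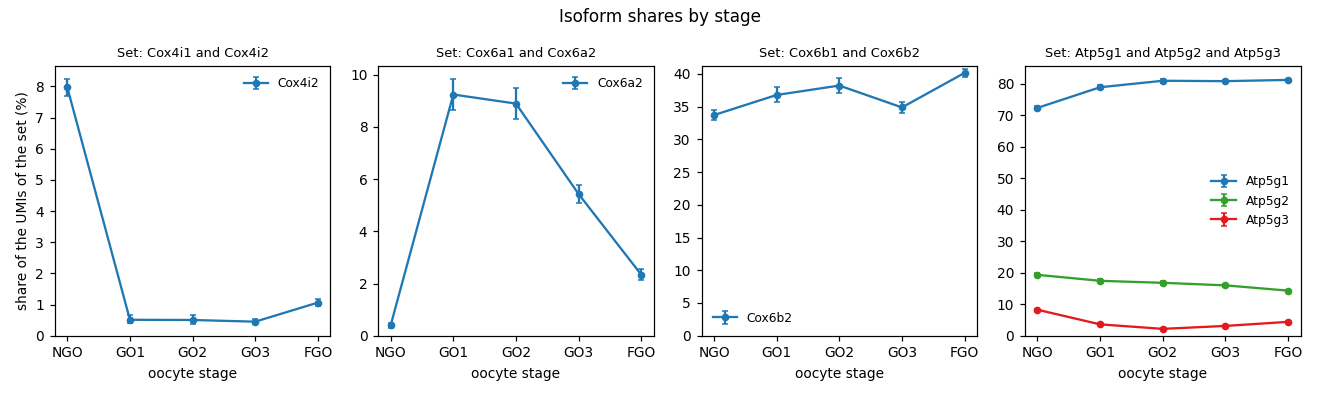
Share of the UMIs of an isoform set (%, vertical axis) by stage (horizontal axis) for *Cox4i2*, *Cox6a2*, *Cox6b2* and the 3 *Atp5g* genes; bars are exact 95% intervals and cover counting error only. The share of *Cox4i2* is highest in NGO, that of *Cox6a2* in GO1 and GO2, and *Cox6b2* stays between 33.7% and 40.1%.

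There were 5 genes under 10 CPM in every stage. *Cox7a1* reached 4.88 CPM in NGO and *Ndufa4l2* 2.85 CPM in FGO. *Cox7b2*, an isoform known from testis, had 10 UMIs in all 223 cells, and *Cox8b*, the heart and muscle isoform of subunit 8, had 1. *Ndufs5*, an accessory subunit of complex I, was listed at 0 UMIs in all 223 cells, where a floor of 3 counts per stage comes to 0.0466 to 0.120 CPM. Apart from *Ndufa4l2*, the next lowest gene counted under complex I, *Ndufs1*, held at least 13.2 CPM in every stage. Whether reads were assigned to *Ndufs5* was not tested, so its 0 does not show that the transcript was absent.

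The promoters of the genes are shown for *Uqcrc1*, which changed most in complex III, for *Sdhb*, which was lower in GO1, and for *Atp5k*, which was highest in complex V. The sequences are the 150 bases before the start site, from RefSeq on GRCm38.p6, 5′ to 3′ on the strand of the gene, with matches to the searched motifs in capitals. That of *Uqcrc1* is chr9:108936498-108936647 (plus strand), that of *Sdhb* chr4:140961121-140961270 (plus strand) and that of *Atp5k* chr5:108434400-108434549 (minus strand).
Uqcrc1: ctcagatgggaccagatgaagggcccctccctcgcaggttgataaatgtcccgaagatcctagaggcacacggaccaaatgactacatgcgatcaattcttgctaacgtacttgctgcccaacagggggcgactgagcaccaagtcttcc
Sdhb: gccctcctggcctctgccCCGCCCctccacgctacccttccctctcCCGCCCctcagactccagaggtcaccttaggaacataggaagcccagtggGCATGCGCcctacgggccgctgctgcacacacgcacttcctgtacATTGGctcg
Atp5k: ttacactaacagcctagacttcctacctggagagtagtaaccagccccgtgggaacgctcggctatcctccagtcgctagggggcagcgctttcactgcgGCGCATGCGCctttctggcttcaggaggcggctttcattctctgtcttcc
The motifs searched on both strands were those of NRF1 (GCATGCGC), the ETS factors such as GABPA (CCGGAAGT), YY1 (AAGATGGC, which holds the start of a reading frame and may match there), ERR (CAAGGTCA), CCAAT and the GC box (GGGCGG), and none of these words contains another. The *Sdhb* stretch holds the NRF1 letters 54 bases before the start, 2 GC boxes and a CCAAT box, and the *Atp5k* stretch holds the NRF1 letters on both strands in overlapping places, 50 and 48 bases before the start. No motif was found in the *Uqcrc1* stretch.

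RefSeq windows of 300 bases (250 before and 50 after the start) were matched for 69 of the 84 genes, with 75 windows. The NRF1 letters were in 13.3% of these windows against 2.71% of all 32851 windows, the YY1 letters in 16% against 2.75%, the ETS letters in 6.67% against 3.89%, the ERR letters in 5.33% against 1.56%, CCAAT in 42.7% against 37.4% and the GC box in 38.7% against 35.7%. NRF1 letters were found for 10 genes, among them *Sdhb*, *Cox6a1* and *Uqcrc1* (within the 50 bases after its start), which were lower in GO1, and *Atp5k*, *Ndufa8* and *Atp5g2*, which were not called. These matches describe letters only.

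Other genes of the pathway were read from lists of assembly factors, electron carriers, further routes of electrons, nuclear control genes and carriers. Between NGO and GO1, 84 of these genes were measured, with 21 lower, 10 higher and 53 not called, beside 25.7% lower and 20.6% higher among all genes. In the mean over cells 30 were lower and 10 higher, beside 34.6% lower and 22.1% higher among all genes in that setting. The calls of *Cox14*, *Gpd2* and *Coq6* were lost there. Of the 47 measured assembly factors, which build the complexes without staying in them, 9 were lower, 5 were higher and 33 were not called. Among those of complex I *Ndufaf2* was at 86 CPM in NGO against 358 CPM in GO1, *Ecsit* 41.9 and 18.7 CPM, *Ndufaf1* 16.2 and 2.43 CPM and *Tmem186* 40.7 and 16.3 CPM. Factors of complex III included *Lyrm7*, *Uqcc3* and *Bcs1l*, with 18.3, 14.3 and 19.3 CPM in NGO and 2.32, 2.65 and 5.98 CPM in GO1. Those of complex IV included *Sco1* (23.6 and 5.27 CPM), *Cox11* (23.1 and 8.78 CPM), *Cmc1* (82.2 and 191 CPM) and *Cox14* (241 and 500.5 CPM), and *Fmc1* of complex V had 26.1 and 137.03 CPM. None of the 4 factors of complex II was called.

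Of the electron carriers and coenzyme Q genes, 4 of 13 were lower and 2 were higher. *Cyc1*, the cytochrome c1 of complex III, which the symbol rule does not take in, was at 261 CPM in NGO, at 36.4 CPM in GO1 and at 78.7 CPM in FGO. *Cycs*, somatic cytochrome c, was at 379 and 965 CPM in NGO and GO1, and *Cyct*, its testis form, at 3.61 and 13.9 CPM. *Coq3*, a methyltransferase of coenzyme Q synthesis, was at 93.3 and 39.6 CPM. Of the further routes of electrons 2 of 7 were lower and 1 was higher, namely *Etfdh*, which brings in electrons from fatty acid oxidation (16.9 and 2.28 CPM), *Prodh* (63.4 and 25.7 CPM) and *Gpd2* (1.51 and 10.7 CPM).

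Of the 10 measured genes for nuclear control of mitochondria, *Gabpa* (16.9 and 1.91 CPM), an ETS factor, and *Tfam* (121.3 and 38.01 CPM), which packs mitochondrial DNA, were lower in GO1, *Esrrb* (4.17 and 22.7 CPM) was higher and 7 were not called. Of the 7 measured carriers, 4 were lower and 1 was higher. The ADP and ATP exchanger *Slc25a5* went from 532 to 126.9 CPM, the phosphate carrier *Slc25a3* from 321 to 91.8 CPM and the outer membrane channel *Vdac1* from 90.8 to 25.7 CPM, while *Vdac2* went from 93.9 to 344 CPM. From GO1 to FGO, 3 of 79 genes of these lists were higher and 1 was lower (all genes 7.98% and 9.03%), which were *Cyc1*, *Sco1*, *Polrmt* and, lower, *Vdac2*.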

How the data were processed

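Single mouse oocytes of 5 stages, held in 4 libraries, were measured by single-cell RNA-seq. The authors split the reads by their cell barcode, mapped them after trimming to the mm9 transcriptome using Tophat, collapsed copies by UMI and deposited raw UMI counts per gene and cell, for 223 cells that passed their filters on detected genes, transcripts and spike-ins. The table does not tie cells to libraries, so no test per library was run, and a stage was 1 pooled sample. iscCOOL-seq data and spike-ins were not analysed here.

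Per stage, the UMIs of each gene were set over all UMIs (CPM). Sums carry exact Poisson intervals and ratios exact binomial (Clopper-Pearson) intervals at 95%. A gene was called at 2-fold or more if the higher level was 10 CPM or above. No doublet caller was run, since oocytes were picked by hand. No cells held identical counts. Deep cells dominate sums of GO1 and GO2, while means over cells give shallow cells the same weight as deep ones. Alternatives were TMM (edgeR 4.0.16) and median-of-ratios factors (DESeq2 1.42.0), used for scaling only, the mean over cells, sums without the 10 deepest cells per stage, other limits of fold (1.5) and level (50 CPM, or none), and structural subunits alone. Means over cells of at least 200000 UMIs, sums without cells of low oocyte markers, and the list as a whole were added after seeing the data.

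Named genes were, per complex, the 2 highest and 2 lowest ratios from NGO to GO1 and the highest and lowest from GO1 to FGO, all central subunits and isoform sets, genes under 10 CPM throughout, and at most 4 called genes of each other list. *Atp5f1*, *Cox7c*, *Ndufa1*, *Ndufa3*, *Ndufa5*, *Ndufa8*, *Ndufs6*, *Polrmt* and *Coq6* lie outside this rule and were named after their values were seen. 1 gene is counted in its group but not reported here by name. The members and lists were chosen with earlier results of these data known. Positions and transcript lengths come from GENCODE vM1 on NCBIM37 (the build of mm9), and *Ndufb8* had no single record there. Calls by size were checked on simulated data. The software was R 4.3.3 and Python 3.11.15 with pandas 2.3.3, numpy 2.4.6, matplotlib 3.10.9 and scipy 1.17.1.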

Additional observations from a re-analysis of the deposited data

How the results depend on the processing

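No paired analysis was possible because each stage was 1 pooled sample and no result came from a test. Log2 ratios are given in the order complex I, II, III, IV, V and whole list. From NGO to GO1 they were -0.52, -0.73, -0.33, -0.72, -0.52 and -0.55 in the sums. They were -0.36, -0.57, -0.17, -0.56, -0.36 and -0.39 with TMM factors, and -0.42, -0.63, -0.23, -0.62, -0.42 and -0.45 with median-of-ratios factors. The mean over cells gave -0.33, -1.25, 0.038, -0.41, -0.14 and -0.27, sums without the 10 deepest cells -0.26, -1.26, 0.069, -0.38, -0.11 and -0.23, and cells of at least 200000 UMIs -0.40, -0.88, -0.17, -0.60, -0.37 and -0.43. From GO1 to FGO they were 0.20, 0.22, 0.19, 0.12, 0.094 and 0.15 in the sums. Without complex II, which moved little, they were 0.21, 0.20, 0.14, 0.11 and 0.17 with TMM factors and 0.18, 0.17, 0.10, 0.075 and 0.14 with median-of-ratios factors. Without complex I, the mean over cells gave 0.70, -0.016, -0.036, -0.067 and 0.058, and cells of at least 200000 UMIs 0.35, 0.12, 0.081, 0.073 and 0.13. Without the 10 deepest cells all 6 were 0.038, 0.68, -0.14, -0.16, -0.21 and -0.083. With structural subunits alone, complexes I and IV were at -0.49 and -0.77 from NGO to GO1, and complex I at 0.18 from GO1 to FGO. The turns of complexes III to V came with the weight of the cells, and their cause was not tested. Of the counts of called genes, the 22 lower from NGO to GO1 became 21 with TMM factors and 45 at 1.5-fold. The count was 31 in the mean over cells, 28 without the deepest cells and 24 in cells of at least 200000 UMIs. Over all genes these settings called 34.6%, 37.6% and 30.3% lower. The 1 higher became 4 in the mean over cells, 4 without the deepest cells and 0 at 50 CPM. In the step from GO1 to GO2, 1 higher and 9 lower genes were called in the mean over cells, 1 and 7 in sums without the deepest cells, and 2 lower at 1.5-fold. From GO2 to GO3, 1.5-fold and no filter each called 3 higher and 1 lower. From GO3 to FGO, 1.5-fold called 4 higher, no filter 3 higher and 2 lower, and 50 CPM 0 lower. From GO1 to FGO, the genes called higher were 7 in the mean over cells, 5 without the deepest cells, 2 in cells of at least 200000 UMIs, 7 at 1.5-fold and 4 with no filter, and those called lower 2 without the deepest cells, 3 with no filter and 0 at 50 CPM. The shallow GO1 cells limit what a single cell can show for genes of low level, and no spread between libraries could be measured.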

Other observations

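The level of the list in FGO was set beside that in NGO, the first and the last stage, as values with no comparison planned. Of the 78 members that reached 10 CPM in NGO or FGO, 66 (84.6%) were below their NGO level in FGO and 12 were above it, beside 55.6% of all 8132 genes below. The median gene of the list was at 74.1% (all genes 91.98%) and the summed list at 75.9% of the NGO level. *Cox4i2* (4.60%), *Cox8c* (11.8%), *Atp5d* (23.7%), *Ndufs1* (27.7%), *Ndufv1* (31.4%) and *Atp5a1* (31.7%) were lowest. *Ndufa2* (141.8%), *Uqcr10* (137.6%), *Atp5j2* (129.4%) and *Ndufa8* (128.8%), all small subunits, were highest. All these values come from the stage sums. In the mean over cells the list held 32861 CPM in NGO and 28342 CPM in FGO. Some members below NGO in the sums were above it there, such as *Atp5g1*, *Cox7a2*, *Cox7c*, *Ndufa5* and *Uqcrb*, and their number was not counted. The ages of the mice differed between these stages, and age and stage cannot be told apart.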
